A study of Mus musculus with 18 samples.

Results

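Loss of Lao1 was examined in colon tissue of germ-free mice that drank plain water. The comparison took 6 of the 18 libraries of the series, 3 labelled LAO1KO water and 3 labelled WT water, and members were chosen by these labels alone. Germ-free mice are raised without microbes. All were 8-week-old C57BL/6J males, and each library was made from the colon of 1 mouse. WT mice carried both oxidase genes. LAO1KO mice were Lao1-/-. The other groups compared were DKO water (Lao1-/- Il4i1-/-, n = 3), WT DSS and LAO1KO DSS (n = 3 each). Mice of the DSS groups drank 2.5% dextran sulfate sodium (DSS) for 24 hours. The DKO DSS libraries (n = 3) entered the model fitted to all 18 libraries and the stacked plot of all groups. DSS is a sulfated sugar polymer that damages the lining of the colon. The sources used here do not say which exons of Lao1 were deleted, nor how many founder animals or litters the mice came from.

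L-amino acid oxidases are flavin enzymes that deaminate amino acids and release a keto acid, ammonia and hydrogen peroxide. LAO1 is best known from mouse milk, where the peroxide it makes restrains bacteria, and IL4I1, the product of a related gene, is secreted by immune cells and consumes aromatic amino acids. In the gut, hydrogen peroxide is also made by the epithelial oxidases NOX1 and DUOX2 and removed by catalase, peroxiredoxins and glutathione peroxidases.

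The 6 libraries held 29.4 to 36.6 M counts. Of the 45777 genes listed, 18848 passed the filter on low counts and were tested. Levels are given in CPM, counts per 1 M of each library's effective size. WT water replicate B and LAO1KO water replicate A stood apart from the other 4 libraries. On the first principal component of the 6, which held 40.6% of the variance, they lay at 70.2 and 41.5, and the others between -46.2 and -5.45. Colon markers were high in every library, with the goblet cell mucin Muc2 at 4204 to 6371 CPM and the colonocyte carbonic anhydrase Car1 at 5035 to 10412 CPM. The surface colonocyte chloride exchanger Slc26a3 was at 734 CPM in WT replicate B and between 103 and 271 CPM elsewhere.

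Lao1 itself (GRCm38, chromosome 4, 118961967 to 118968910) was barely detected and could not check the label. WT replicates A, B and C held 0, 0 and 2 of its counts, and LAO1KO replicates A, B and C held 5, 5 and 0. A count of 0 allows up to 3 counts, here 0.0835 to 0.0956 CPM in the 3 libraries at 0, which covers counting error only. The means were 0.0177 ± 0.0307 CPM in WT and 0.0913 ± 0.0792 CPM in LAO1KO (SD, n = 3 each; 2-sided exact permutation p = 0.4). Lao1 was thus not lower in the knockout libraries, and the groups overlapped. The related oxidase Il4i1 and its overlapping gene model Il4i1b share sequence, so their counts were summed. The sum held 57, 27 and 51 counts in WT and 40, 26 and 50 in LAO1KO, or 1.27 ± 0.371 and 1.14 ± 0.450 CPM (SD, n = 3 each; exact permutation p = 0.7).

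Between LAO1KO and WT on water 10 genes passed edgeR's quasi-likelihood test at a Benjamini-Hochberg adjusted p of 0.05, which is 0.0531% of the genes tested. Of these, 6 rose (0.0318%) and 4 fell (0.0212%). The 6 were Ndufs5-ps, Pcsk5, Cables1, Pisd-ps1, Vmn2r-ps126 and Gm29891, and the 4 were Mier3, Rhbdl2, Iars and Gm42226. Pseudogenes or gene models without a proper name made up 5 of the 10. In all 10 the 3 LAO1KO libraries lay wholly above or wholly below the 3 WT libraries, an arrangement seen in 16.6% of all tested genes (8.4% higher, 8.22% lower). Without adjustment 2690 genes (14.3%) had a p under 0.05, 1307 higher (6.93%) and 1383 lower (7.34%). The median log2 fold change of all tested genes was 0.01, with quartiles at -0.22 and 0.25. In whole tissue, fewer cells of a type and less RNA per cell cannot be told apart. The count of passing genes was 17 without WT replicate B, 13 without LAO1KO replicate A and 33 without both, and it ranged from 5 to 105 when each library was left out in turn.

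**Figure D1:**
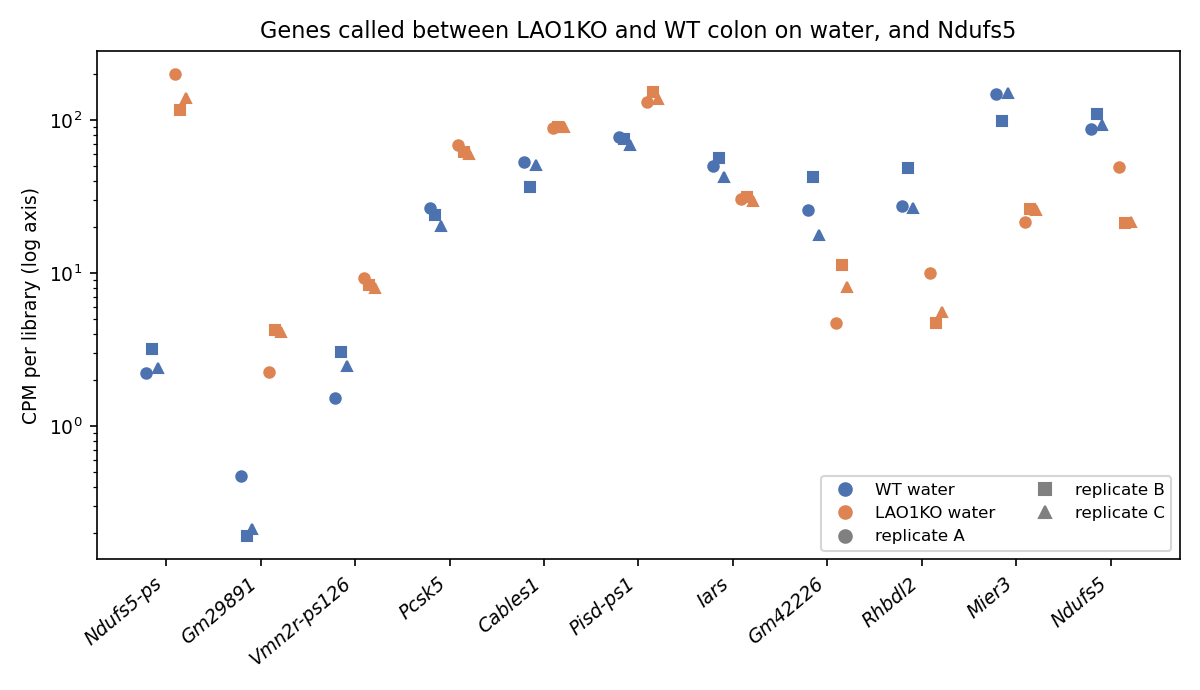
CPM in each library on a log axis for the 10 genes that passed and for Ndufs5, with WT water in blue, LAO1KO water in orange and marker shapes for replicates. The groups did not overlap for any of these 11 genes, and the gap was widest for Ndufs5-ps.

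The largest difference was in reads assigned to Ndufs5-ps, a transcribed pseudogene of Ndufs5. Ndufs5 encodes a small subunit of respiratory complex I and lies on chromosome 4 (GRCm38 RefSeq, 123712710 to 123718186), 4.75 Mb from Lao1. Ndufs5-ps lies on chromosome 16 (42955580 to 42956079), within the gene Zbtb20 but overlapping none of its exons in GENCODE M21. Because both genes take reads of nearly the same sequence, coding positions 61 to 120, counted from the A of the start codon, are shown for each, with the bases that differ in capitals. They come from the GENCODE M21 transcripts of Ndufs5 (GRCm38, chr4:123712710-123718202, minus strand, 2 coding exons joined) and of the processed pseudogene BC002163, which lies inside Ndufs5-ps (chr16:42955631-42955949, plus strand).
Ndufs5: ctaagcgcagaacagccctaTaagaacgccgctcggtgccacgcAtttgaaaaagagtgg
Ndufs5-ps: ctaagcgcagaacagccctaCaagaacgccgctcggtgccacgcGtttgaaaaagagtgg
These were the only differences over the 318 coding bases, which were 99.4% identical. With Ndufs5 written first and positions counted from the A of the start codon they are T81C and A105G. Of the 169 stretches of 150 bases, the length of 1 read, 64 (37.9%) hold neither difference.

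Ndufs5-ps was at 2.23, 3.22 and 2.42 CPM in WT replicates A, B and C and at 201, 116 and 139 CPM in LAO1KO. It rose by 5.86 ± 0.24 on the log2 scale (SE), or 58.1-fold, with an edgeR adjusted p of 1.16e-10. Ndufs5 was at 87.3, 110 and 93.6 CPM in WT and at 49.7, 21.2 and 21.8 CPM in LAO1KO. Its log2 fold change of -1.65 ± 0.29 just missed the threshold (edgeR adjusted p = 0.0500089), with no overlap between the groups. Of the pair's summed counts, Ndufs5-ps held 2.49 to 2.84% in the WT libraries and 80.2 to 86.5% in the LAO1KO libraries. Their summed level was 99.7 ± 12.4 CPM in WT and 183 ± 59.7 CPM in LAO1KO (SD, n = 3 each), higher in 3 of 3 LAO1KO libraries, with an exact permutation p of 0.1, the smallest that 3 against 3 allows. LAO1KO replicate A had the highest sum, 251 CPM, and the other LAO1KO libraries had 138 and 161. How the counting assigned reads that match both copies is not given in the sources used here, so the level of either gene alone is uncertain. Zbtb20 was at 4.29 to 6.68 CPM in WT and 7.29 to 8.79 in LAO1KO (0.54 ± 0.22; edgeR adjusted p = 0.282).

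The split was similar in other mice that lack Lao1. Among mice on DSS, Ndufs5-ps held 4.81 to 5.19% of the pair's counts in WT and 78.1 to 83.9% in LAO1KO, and in DKO mice on water it held 81.9 to 87.6%. The DSS mice are separate animals, while the DKO comparison uses the same 3 WT libraries. Under DSS Ndufs5-ps rose by 4.21 ± 0.22 (edgeR adjusted p = 7.75e-09) and Ndufs5 fell by 2.25 ± 0.29 on the log2 scale (0.00301).

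**Figure D2:**
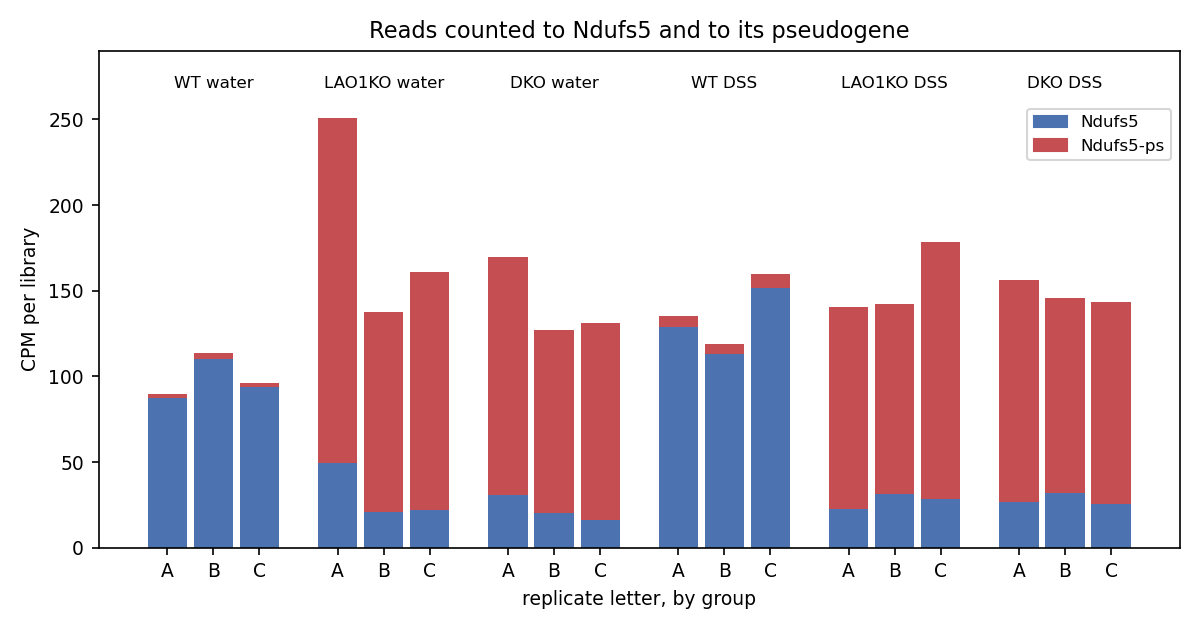
CPM counted to Ndufs5 (blue) and Ndufs5-ps (red), stacked, in each library of the 6 groups. In the 6 WT libraries nearly all of the bar is Ndufs5, and in the 12 LAO1KO and DKO libraries most of it is Ndufs5-ps.

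Pcsk5 encodes a proprotein convertase, a protease that activates precursor proteins in the secretory pathway. It was at 26.7, 24.2 and 20.4 CPM in WT and at 68.6, 61.8 and 60.0 CPM in LAO1KO. All 3 LAO1KO libraries were more than 2 times as high as any WT library. It rose by 1.42 ± 0.13, or 2.67-fold (edgeR adjusted p = 3.40e-05). Under DSS it rose by 1.41 ± 0.14 (6.83e-05), from 18.3 to 22.0 CPM in WT to 49.0 to 61.2 in LAO1KO. Of 9 tested proprotein convertases it was the 1 that passed. The median of the 9 was -0.15.

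Mier3 encodes a nuclear protein of the MIER family, which recruits histone deacetylases. It was at 147, 99.4 and 150 CPM in WT and at 21.5, 26.3 and 26.1 CPM in LAO1KO. It fell by 2.42 ± 0.23 on the log2 scale, 5.37-fold, with an edgeR adjusted p of 3.40e-05. Under DSS it fell by 1.62 ± 0.22 (0.00301), and there LAO1KO replicate A was at 47.9 CPM, the other LAO1KO libraries at 23.6 and 24.4, and WT at 92.9 to 108. Its relatives Mier1 (0.23 ± 0.14) and Mier2 (0.08 ± 0.12) did not pass. Of 12 tested genes of MIER and histone deacetylase complexes Mier3 was the 1 that passed, with a list median of -0.15. The corepressor Rcor1 (-0.42 ± 0.14) and Mta3 (-0.32 ± 0.11) had unadjusted p under 0.05.

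Rhbdl2 encodes a rhomboid, a protease that cuts other proteins within the plasma membrane. It lies on chromosome 4 (123787875 to 123830196), 4.83 Mb from Lao1 and 69.7 kb from Ndufs5, with 2 annotated genes between them. It was at 27.4, 48.7 and 26.6 CPM in WT and at 10.05, 4.70 and 5.58 CPM in LAO1KO. WT replicate B was the highest WT library and LAO1KO replicate A the highest LAO1KO library. Rhbdl2 fell by 2.34 ± 0.26 on the log2 scale, 5.05-fold (edgeR adjusted p = 3.50e-04), and under DSS by 2.51 ± 0.27 (2.04e-04). It was the 1 of 11 tested rhomboid and related genes that passed. Rhbdd1 (-0.38 ± 0.14) and Rhbdd3 (0.32 ± 0.13) had unadjusted p under 0.05, and the list median was 0.01. Of 12 tested EGF receptor ligands and receptors none passed, and the median was -0.23. At an unadjusted p under 0.05, 2 were lower, including Egfr (-0.44 ± 0.14), and 0 higher, against 7.34% and 6.93% of all tested genes. Without WT replicate B 0 were lower at that level, and the median was -0.03.

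Gm29891, a long noncoding RNA on chromosome 4 (120659639 to 120663276) 1.70 Mb from Lao1, was at 0.473, 0.191 and 0.213 CPM in WT and at 2.27, 4.28 and 4.15 CPM in LAO1KO. It rose by 3.58 ± 0.50 (edgeR adjusted p = 0.00515) and under DSS by 3.33 ± 0.52 (0.00952). Its WT level is close to the floor, so the size of its fold rests on few counts.

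The other 5 genes passed with adjusted p from 0.0248 to 0.0477 and were less stable. Pisd-ps1, a transcribed pseudogene of the phosphatidylserine decarboxylase gene Pisd, was at 78.3, 75.6 and 69.2 CPM in WT and at 131, 153 and 139 in LAO1KO (0.92 ± 0.15; edgeR adjusted p = 0.0276). Pisd itself was at 64.3 to 77.0 CPM in WT and 61.1 to 66.3 in LAO1KO (-0.13 ± 0.10), and reads of the parent and its copies may be shared by the counting. Vmn2r-ps126, a vomeronasal receptor pseudogene, was at 1.53, 3.06 and 2.47 CPM in WT and at 9.34, 8.42 and 7.96 in LAO1KO (1.86 ± 0.30; 0.0248). Iars, the cytosolic isoleucyl-tRNA synthetase, was at 50.5, 56.4 and 42.3 CPM in WT and at 30.7, 31.4 and 29.6 in LAO1KO (-0.70 ± 0.12; 0.0477). Cables1, which encodes a cyclin-dependent kinase binding protein, was at 53.1, 36.8 and 51.0 CPM in WT and at 88.4, 89.9 and 90.7 in LAO1KO (0.93 ± 0.16; 0.0477). The unnamed model Gm42226 was at 25.9, 42.8 and 17.8 CPM in WT and at 4.71, 11.4 and 8.09 in LAO1KO (-1.83 ± 0.32; 0.0477). It overlaps AI506816, for which the log2 fold change was -2.45 ± 0.46 without passing (0.0668). Without WT replicate A or LAO1KO replicate C, 5 of the 10 genes still passed, and without WT replicate B, LAO1KO replicate A or LAO1KO replicate B, 6 did. Without WT replicate C all 10 passed. Pcsk5, Ndufs5-ps, Mier3, Rhbdl2 and Gm29891 passed in all 6 of these fits.

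Under DSS the genes divided. Of the 10, 8 had the same sign there and 5 passed with the same sign (Ndufs5-ps, Mier3, Pcsk5, Rhbdl2 and Gm29891), where 0.0849% of all tested genes passed (0.0212% higher, 0.0637% lower). Pisd-ps1 came close (0.80 ± 0.15; edgeR adjusted p = 0.052). Cables1 was at 45.1 to 67.2 CPM in WT and 46.7 to 55.6 in LAO1KO under DSS (-0.09 ± 0.16), Iars at 25.3 to 33.2 and 26.4 to 31.1 (-0.05 ± 0.12), Vmn2r-ps126 at 2.88 to 3.95 and 2.86 to 6.02 (0.24 ± 0.30) and Gm42226 at 3.82 to 7.71 and 7.60 to 8.70 (0.55 ± 0.32). For these 4 the difference seen on water was not detected under DSS. The test of whether the genotype difference depended on DSS passed 0 genes in edgeR, with 3005 at an unadjusted p under 0.05, 441 genes in DESeq2 and 2324 in limma voom. Of the 10 genes, 6 had an unadjusted p under 0.05 in that test, as had 3005 of all 18848 tested genes. Adjusted p for the 10 ran from 0.126 upward. The 10 were chosen on the same water libraries that enter that test, so their share in it cannot show an excess. DKO mice on water, set against the same 3 WT libraries, had the same sign for all 10, and 9 passed there, where 0.621% of all genes did (0.371% higher, 0.249% lower). Iars was the exception (-0.42 ± 0.12; 0.118). Because the 10 genes were chosen with those WT libraries, their DKO values are not an independent check.

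**Figure D3:**
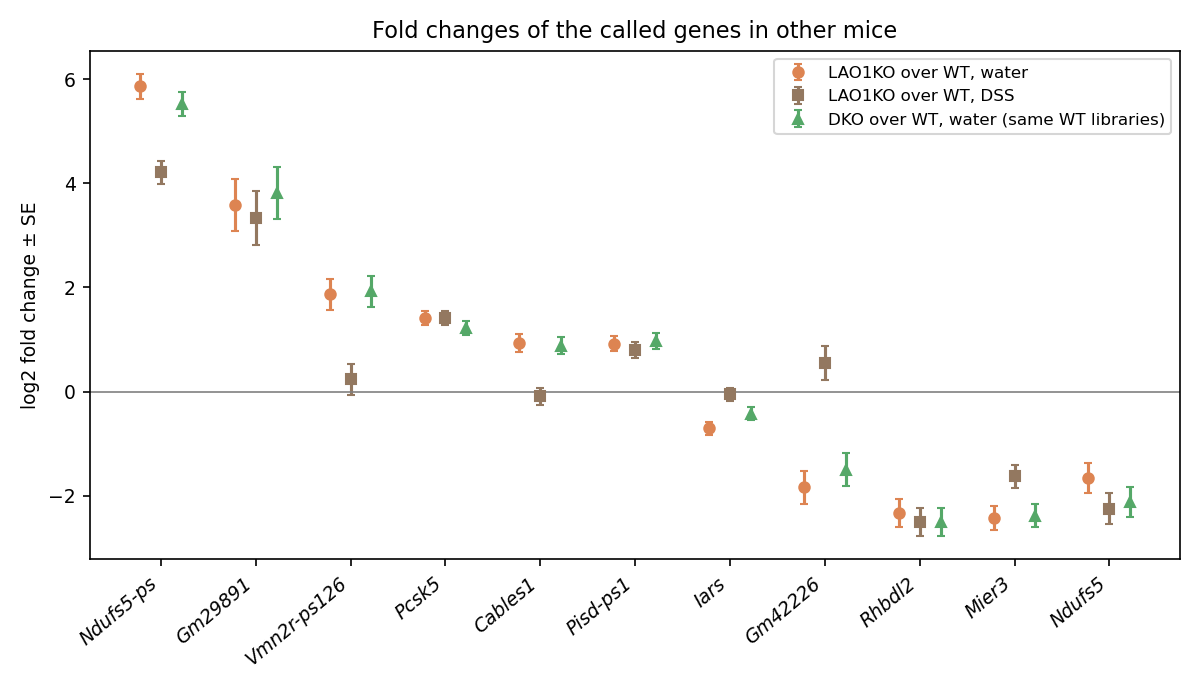
Log2 fold change with its SE for the 10 genes and Ndufs5 in LAO1KO over WT on water (circles), LAO1KO over WT on DSS (squares) and DKO over WT on water (triangles, which share the 3 WT water libraries with the circles). Cables1, Iars, Vmn2r-ps126 and Gm42226 lie near 0 or across it under DSS, and the other genes keep their direction.

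Chromosome 4 around Lao1 was examined because Rhbdl2, Gm29891 and Ndufs5 all lie there. Of 145 tested genes whose start is within 5 Mb of the Lao1 start, 2 passed (1.38%), 1 higher and 1 lower. These were Gm29891 and Rhbdl2, which had prompted the look. They were also the only 2 that passed among the 1159 tested genes of chromosome 4 (0.173%). Of all tested genes 0.0531% passed. Because the region was chosen with these 2 known, their share in it cannot show an excess. Within 1 Mb none of 31 tested genes passed in edgeR, while 12 had an unadjusted p under 0.05, 7 higher and 5 lower (38.7% against 14.3% of all genes). Within 5 Mb that share was 26.9% and within 10 Mb 20.8%. Among the nearest genes, Cfap57 was at 0.0638 to 0.529 CPM in WT and 1.39 to 3.14 in LAO1KO (2.73 ± 0.57). Hyi, 0.602 Mb before the Lao1 start and annotated as a transcribed pseudogene, was at 8.00 to 24.0 CPM in WT and 46.4 to 53.5 in LAO1KO (1.47 ± 0.31). Guca2b, which encodes the gut peptide uroguanylin and lies 0.695 Mb away, was at 18.9, 9.12 and 16.6 CPM in WT and 40.2, 31.6 and 36.4 in LAO1KO (1.28 ± 0.25; edgeR adjusted p = 0.093). None of the 3 passed, and none overlapped between the groups, an arrangement seen in 16.6% of all tested genes. Under DSS their log2 fold changes were 1.40, 0.38 and 0.40, without passing.

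Several neighbours of Ndufs5 and Rhbdl2, singled out after their values were seen, were also low in LAO1KO on water. Bmp8b (-2.14), Nt5c1a (-1.81), Bmp8a (-1.50), Mfsd2a (-1.11) and Heyl (-0.81) lie 3.98 to 4.35 Mb from Lao1 and had unadjusted p under 0.05. Under DSS the same genes were at -1.15, 0.14, -0.06, -0.12 and 0.49 and none passed. Rhbdl2 and Ndufs5, in contrast, passed under DSS. Not all genes near the pair were low on water. Akirin1 was at 0.02, Mycbp at 0.19, Rragc at 0.05 and D130007C19Rik at -1.08, none with an unadjusted p under 0.05, and Ppt1 was higher at that level (0.34). Within 5 Mb of Lao1, 17 of 145 tested genes were higher and 22 lower at that level. The stretch near the pair was not counted by direction, so no local excess of low values can be read from it.

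**Figure D4:**
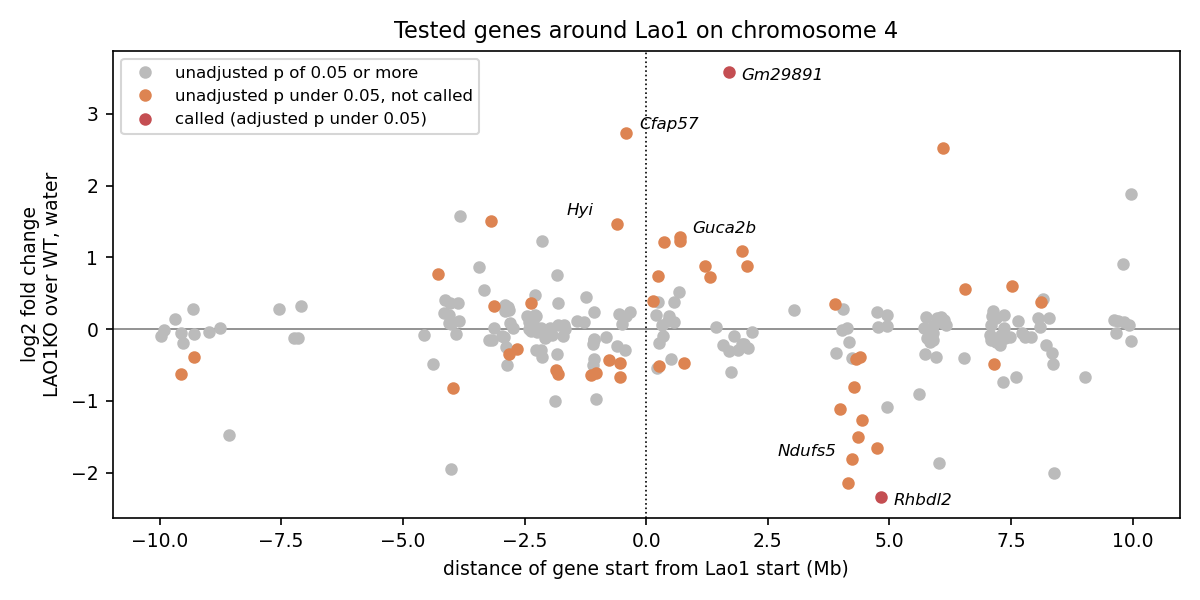
Log2 fold change, LAO1KO over WT on water, of the tested genes on chromosome 4 against the distance of their start from the Lao1 start in Mb, with genes that passed in red and genes at an unadjusted p under 0.05 in orange. Rhbdl2 and Gm29891 are the 2 that passed, and values near Rhbdl2 lie on both sides of 0.

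Near Cables1 on chromosome 18 (11839274 to 11945627) some other genes had higher values without passing. They were picked for their large changes or after their values were seen. The tested genes of this stretch were not counted by direction, so no local excess can be read from them. The phospholipid lipase Abhd3 (starting at 10644411) was at 12.1, 3.19 and 14.4 CPM in WT and 32.4, 34.7 and 36.0 in LAO1KO (1.79 ± 0.38; edgeR adjusted p = 0.128). Ttc39c (starting at 12583103) was at 3.22 to 4.26 CPM in WT and 7.89 to 10.6 in LAO1KO (1.38 ± 0.34; 0.166), and the oxysterol-binding protein gene Osbpl1a (starting at 12753898) at 10.2 to 12.3 and 15.8 to 18.8 CPM (0.58 ± 0.12; 0.114). Under DSS Abhd3 was at 0.57 ± 0.38, Ttc39c at -0.05 ± 0.34 and Osbpl1a at 0.34 ± 0.12.

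Other genes had large differences that did not pass. Among the 10 largest higher values were the zinc-binding metallothioneins. Mt2 was at 103, 88.6 and 130 CPM in WT and 379, 261 and 244 in LAO1KO (1.46 ± 0.27; edgeR adjusted p = 0.0632). Mt1 was at 193 to 243 and 307 to 645 CPM (1.02 ± 0.28), with LAO1KO replicate A highest for both. The counting could share reads between these close paralogs. Under DSS Mt2 was at -0.44 ± 0.26. The hormones neurotensin (Nts, 1.27 ± 0.34) and CART (Cartpt, 1.33 ± 0.41) were in the same set, as were Kremen2 (1.13 ± 0.34) and Bglap3 (1.15 ± 0.31).

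Among the 10 largest lower values the pancreatic polypeptide receptor gene Npy4r was at 4.82, 8.70 and 3.65 CPM in WT and 1.36, 2.16 and 1.14 in LAO1KO (-1.87 ± 0.37; edgeR adjusted p = 0.093). Scube2 (-1.63 ± 0.39), the G protein gene Gna12 (-1.33 ± 0.31), Ago2 (-1.33 ± 0.35) and Abhd2 (-1.22 ± 0.38) were in the same set. So were the homeobox gene Nkx3-2 (-1.27 ± 0.38) and the membrane mucin gene Muc4 (-1.20 ± 0.30). The set was limited by rule to genes without overlap between the groups, an arrangement seen in 16.6% of all tested genes. For 2 of the genes 1 library was far above the rest. B3galt5, a glycosyltransferase gene, was at 65.2, 236 and 61.7 CPM in WT and 40.6 to 48.8 in LAO1KO, and Dhx58, an RNA sensor gene, at 5.29, 19.5 and 5.46 CPM against 3.55 to 4.97. WT replicate B was the highest library for both.

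Of 48 gene lists examined, 3 held a gene that passed, namely the lists of proprotein convertases, rhomboids and MIER complexes already described. The enzymes closest in function to the deleted gene came first. Among 18 tested amino acid and amine oxidases none passed, 2 were lower at an unadjusted p under 0.05 (0 without LAO1KO replicate B or C), and the median was -0.26. Monoamine oxidase A (Maoa) was at 753 to 961 CPM in WT and 1040 to 1158 in LAO1KO (0.37 ± 0.19), and the spermine oxidase Smox at 24.6 to 61.4 and 17.4 to 35.7 CPM (-0.75 ± 0.33). Among 22 peroxide-removing enzymes the median was 0.04, and Gpx4 (0.48 ± 0.18) and Prdx5 (0.42 ± 0.17) had unadjusted p under 0.05. Without LAO1KO replicate A 0 of the 22 were higher and 2 lower at that level, with a median of -0.17. Among 14 NADPH and dual oxidase genes, of which 9 had positive values, the median was 0.05. At that level Nox1 (-0.87 ± 0.32) and Duox2 (-0.64 ± 0.28) were lower and Noxo1 (0.34 ± 0.14) higher, against 7.34% and 6.93% of all tested genes, and without WT replicate B 0 were lower and 0 higher. Nox1 was at 7.02 to 10.2 CPM in WT and 3.18 to 5.65 in LAO1KO. Of 18 Nrf2 targets, which respond to oxidative stress, 1 was higher and 2 lower at an unadjusted p under 0.05, the latter including Gstm1 (-0.54 ± 0.13), and without LAO1KO replicate A 4 were lower.

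Of 19 tested genes of the ATF4 response, which is switched on when amino acids run short, none passed, 10 were lower and 1 higher at an unadjusted p under 0.05 (7.34% and 6.93% of all tested genes), and the median was -0.60. Aldh18a1, of proline synthesis, was at 40.3, 51.0 and 30.2 CPM in WT and 20.8, 23.4 and 23.7 in LAO1KO (-0.84 ± 0.18; edgeR adjusted p = 0.122). The asparagine synthetase Asns was at 24.6, 55.1 and 19.2 CPM in WT and 13.7 to 21.0 in LAO1KO (-0.98 ± 0.31). WT replicate B was the highest library for both, and without it 2 of the 19 were lower at that level and the median was -0.35. Over all tested genes, 666 were lower at that level without WT replicate B, against 1383 with it. Among 19 amino acid transporters, Slc6a14 was at 415 to 494 CPM in WT and 611 to 705 in LAO1KO (0.55 ± 0.18), Slc7a1 at 27.5 to 38.6 and 20.5 to 21.8 (-0.57 ± 0.14). The list median was 0.01.

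Of 23 cell cycle and replication genes none passed, 13 were lower at an unadjusted p under 0.05 (7.34% of all tested genes) and the median was -0.57. The replication helicase gene Mcm5 was at 36.6, 35.9 and 20.8 CPM in WT and 16.6, 14.5 and 14.1 in LAO1KO (-1.04 ± 0.26; edgeR adjusted p = 0.173), and Rrm2 at 19.1, 38.4 and 20.7 against 16.5, 12.3 and 12.8 CPM (-0.91 ± 0.26). At that level 8 were lower without WT replicate B (median -0.45), 18 without LAO1KO replicate A (-0.85) and 16 without both libraries (-0.58). Over all tested genes 666, 1744 and 729 were lower in those fits. Of 20 cholesterol and fatty acid synthesis genes 5 were lower at that level, against 7.34% of all tested genes, and the median was -0.36. That count was 3 without WT replicate B (median -0.21), 8 without WT replicate C (-0.45) and 12 without LAO1KO replicate A (-0.49). The medians of the cell cycle and the synthesis genes under DSS were -0.14 and 0.03.

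Enteroendocrine genes, which mark the hormone cells of the epithelium, had higher values. None of the 12 tested passed, and the median was 0.58. At an unadjusted p under 0.05, 6 were higher and 0 lower, against 6.93% and 7.34% of all tested genes. Their summed level was 361, 328 and 370 CPM in WT and 537, 569 and 564 CPM in LAO1KO, with no overlap. Taken singly, 8.4% of all tested genes were higher without overlap. The granule protein gene Chga was at 68.8, 49.6 and 57.4 CPM in WT and 80.4, 103 and 103 in LAO1KO (0.70 ± 0.17; edgeR adjusted p = 0.156), and the hormone gene Cck at 1.48, 5.23 and 3.65 against 5.19, 10.5 and 11.4 CPM (1.39 ± 0.48). The median stayed between 0.50 and 0.64 when any 1 library was left out. Under DSS it was -0.08.

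Type I interferon-stimulated genes had a median of -0.67, with none past the adjusted threshold. At an unadjusted p under 0.05, 7 of 22 were lower, against 7.34% of all tested genes. WT replicate B had a summed level of 1174 CPM, and the other 5 libraries had 382 to 599. Usp18, a brake on this pathway, was at 1.20, 19.3 and 1.81 CPM in WT and 0.603 to 1.70 in LAO1KO. Without WT replicate B the median was 0.03 and 0 genes were lower at that level, while 14 were lower without WT replicate A, 12 without WT replicate C, 11 without LAO1KO replicate A and 4 without LAO1KO replicate C. Of 20 interferon gamma and MHC class I genes 9 were higher and 1 lower at that level (6.93% and 7.34% of all tested genes), with a median of 0.17. Among the 9 were the peptide transporter gene Tap2 (0.50 ± 0.15) and Psmb10 (0.59 ± 0.20). Without WT replicate B 1 of the 20 was higher, with a median of 0.25.

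All 13 mitochondrially encoded mRNAs had positive values, 5 at an unadjusted p under 0.05 (6.93% of all tested genes were higher at that level), with a median of 0.65. Without WT replicate B 1 of the 13 was at that level, without WT replicate A or LAO1KO replicate C 2, without LAO1KO replicate B 3, and the median was 0.57 to 0.90 with any 1 library left out. They held 7.65, 6.89 and 9.08% of counts in WT and 8.67, 14.4 and 13.4% in LAO1KO, and the groups overlapped (exact permutation p = 0.2). The 36 nuclear complex I subunits tested had a median of 0.22, and of -0.13 without LAO1KO replicate A, whose summed level for them was 7759 CPM against 4156 to 5571 elsewhere. Ndufs5 had the lowest value of the 36, but its level alone is uncertain, because reads can match Ndufs5-ps too. The summed level of the pair was higher in LAO1KO (183 CPM against 99.7 in WT).

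**Figure D5:**
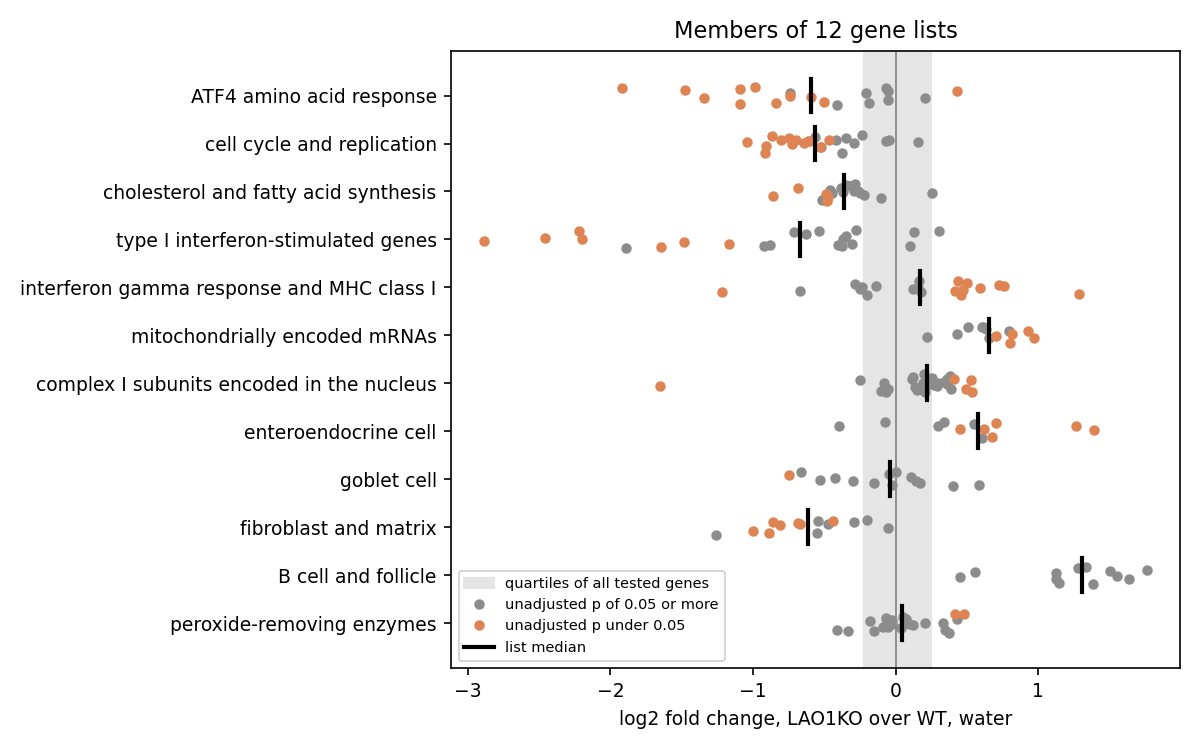
Log2 fold change, LAO1KO over WT on water, of the tested members of 12 gene lists, with orange for an unadjusted p under 0.05, a black line at each list's median and a grey band between the quartiles of all tested genes. ATF4, cell cycle, cholesterol synthesis, type I interferon and fibroblast medians lie below the band, and mitochondrial, enteroendocrine and B cell medians above it.

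Markers of other cell types differed between libraries as well. Of 14 fibroblast and matrix genes none passed and 7 were lower at an unadjusted p under 0.05 (7.34% of all tested genes), with a median of -0.61. Their summed level was 1130 to 1780 CPM in WT and 629 to 1221 in LAO1KO, and 1 was lower at that level without WT replicate B, 2 without LAO1KO replicate C and 4 without LAO1KO replicate B. B cell and follicle genes had a median of 1.31, and of -0.19 without LAO1KO replicate C, which had a summed level of 55.5 CPM against 7.27 to 19.1 elsewhere. Red cell genes were at 45.7 to 114 CPM in WT and 144 to 243 in LAO1KO (median 1.29). The 6 genes of the mesothelial list had a median of -1.20. The mesothelial median was -0.07 without WT replicate C, -0.76 without LAO1KO replicate C and -2.05 without LAO1KO replicate A. Goblet cell genes (median -0.04) and colonocyte genes (-0.07) had 1 gene each at an unadjusted p under 0.05. Whether the makeup of the tissue pieces bears on the gene differences was not tested.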

How the data were processed

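The authors deposited raw read counts, 1 column per library and 1 line per gene symbol. Per the labels' protocols, stranded mRNA libraries were sequenced as paired reads of 150 bases. Tools named in the submitters' processing notes, without their roles, are HISAT2 2.1.0 and StringTie 2.1.3b, then R 4.3.2 with DESeq2 1.42.1, and FastQC 0.11.7 beside Trimmomatic 0.38. The builds given there are mm10 and GRCm38. Strand and multiple-match settings are not given in the sources used here.

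In R 4.3.3 with edgeR 4.0.16, counts were filtered (filterByExpr), scaled (TMM) and fitted by robust quasi-likelihood to all 18 libraries with 1 mean per group. P-values were adjusted by Benjamini-Hochberg over 18848 genes. SE is the absolute log2 fold change over the square root of F. The steps were tested on simulated data. DESeq2 1.42.0 and limma 3.58.1 were alternatives. Positions came from RefSeq GRCm38.p6.

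The comparison, gene lists and naming rule were chosen with earlier results of these data known. Named were Lao1, Il4i1 and Il4i1b, every gene that passed, the 10 largest changes per direction that did not pass (no overlap between groups, a mean of 5 CPM or more where higher, unadjusted p under 0.01, no pseudogenes or unnamed models) and, per list, members that passed and up to 4 others with the smallest p. Pisd, AI506816, Cfap57, Zbtb20, Osbpl1a, Slc26a3, Muc2, Car1, Mier2 and the neighbours of Ndufs5 were added after their values were seen. 1 member of a gene list is not reported here.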

Additional observations from a re-analysis of the deposited data

How the results depend on the processing

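The number of genes passing between LAO1KO and WT on water was 10, and it depended on the method. It was 4 with the 6 compared libraries alone, 298 with DESeq2, 933 with limma voom and library weights, and 33 without both outlying libraries, a setting chosen after seeing the data. Leaving out each library in turn gave 5 to 105. With median-of-ratios scaling the split was 5 higher and 5 lower in place of 6 and 4. Pcsk5, Ndufs5-ps and Mier3 passed in all 15 alternatives, Rhbdl2 and Gm29891 in 14, Pisd-ps1 and Vmn2r-ps126 in 10, Gm42226 and Ndufs5 in 8, Iars in 7 and Cables1 in 4. Under DSS the 16 passing genes became 55 with DESeq2 and 967 with limma voom, and 9 to 16 with a library left out. For the dependence on DSS the count of 0 became 2 without a filter, 441 with DESeq2, 2324 with limma voom and 0 to 47 with a library left out. For DKO on water the 117 became 32 with the compared libraries alone, 783 with DESeq2, 213 with limma voom and 30 to 387 with a library left out. The cause of these differences between methods was not tested.

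With the letter as a replicate block the counts were 10 on water, 17 under DSS, 1 for the dependence on DSS and 178 for DKO on water. Deviations from the group mean had correlations of -0.25, -0.23 and 0.08 between same-lettered WT and LAO1KO libraries on water. Between differently lettered ones they ran from -0.30 to 0.39. With 3 libraries per group these values cannot show whether the letters pair the mice.

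Of 1763 values of single genes under the alternatives 1594 kept their direction and side of the threshold, 38 no longer passed, 126 newly passed and 5 turned sign. Those 5 were Mttp at 0.0012 without WT replicate A, Il4i1 at -0.17 without WT replicate B, -0.30 without WT replicate C and -1.54 without LAO1KO replicate C, and Il4i1b at 0.21 without WT replicate C. The difference of Il4i1 plus Il4i1b ranged from -0.358 to 0.0922 CPM, with 0.0269 without WT replicate A. That of Lao1 ranged from 0.0482 to 0.119 CPM and that of the mitochondrial share from 3.18 to 6.04 percentage points. With a library left out, Il4i1 ranged from -1.54 to 3.35, Il4i1b from -1.36 to 0.21 and Mttp from -1.48 to 0.0012 on the log2 scale. Genes near the floor, such as Lao1 and Gm29891, are limited by depth. Il4i1 and Il4i1b held 52 and 5 counts in WT replicate A, 0 and 51 in WT replicate C and 50 and 0 in LAO1KO replicate C. Their sums in the compared libraries were 26 to 57 counts. Whether this uneven split underlies their changes of sign was not tested.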

Other observations

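Among 18 tested circadian clock genes none passed the adjusted threshold on water. At an unadjusted p under 0.05, 4 were higher and 2 lower in LAO1KO (6.93% and 7.34% of all tested genes). The 2 counts were 3 and 0 without WT replicate B, LAO1KO replicate B or LAO1KO replicate C, and 7 and 2 without LAO1KO replicate A. The clock-output gene Dbp was at 9.86, 6.02 and 13.6 CPM in WT and at 9.45, 35.5 and 34.0 CPM in LAO1KO, so that LAO1KO replicate A lay among the WT libraries and replicates B and C lay apart. Collection times are not given in the labels. The acute-phase gene Saa1 was at 293, 599 and 748 CPM in WT and at 1114, 806 and 996 CPM in LAO1KO (0.83 ± 0.42; edgeR adjusted p = 0.381). Of 13 tested cytokine and chemokine genes none had an unadjusted p under 0.05. The tight junction gene Cldn8 was at 43.0, 49.9 and 47.6 CPM in WT and at 31.9, 34.6 and 31.0 CPM in LAO1KO (-0.53 ± 0.20), without passing, and the list of 19 tight junction and adhesion genes had a median of -0.07.

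Among 18 unfolded protein response genes 4 were lower and 0 higher at an unadjusted p under 0.05, against 7.34% and 6.93% of all tested genes. The lower count was 1 without WT replicate A or B, 2 without LAO1KO replicate B or C and 9 without LAO1KO replicate A. The chaperone gene Hyou1 was at 83.0, 89.6 and 70.6 CPM in WT and at 46.0, 59.0 and 52.0 CPM in LAO1KO (-0.63 ± 0.16; edgeR adjusted p = 0.175), with no overlap, and Calr was at -0.36 ± 0.14. The list median was -0.10 on water and -0.02 under DSS.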
